A study of Mus musculus with 13 samples.

Results

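The genes described here encode the autophagy machinery, measured in RNA of microglia, the resident macrophages of the brain. They were taken by name: 20 named genes plus every entry whose symbol starts with Atg and a digit, of which there were 18. All of the named genes were in the table, which gave 38 genes of 14518 entries. The RSD group held 7 libraries from 2-month-old C57BL/6 mice that went through 6 cycles of repeated social defeat, a stress in which a mouse meets an aggressor again and again, with RNA isolated 24 days later. The CON group held 6 libraries from controls of the same strain and age, for which the labels name no handling. The cells of both groups were sorted as CD11b-positive with intermediate CD45, so every library is a pool of sorted cells, and fewer cells of a type cannot be told apart from less RNA per cell. The comparison asks which transcripts differed between the groups at this time, and no earlier time was sampled.

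Autophagy carries cytoplasm, damaged organelles and protein aggregates to the lysosome inside a vesicle with a double membrane. A kinase complex starts it, a lipid kinase marks the site, lipid-transfer and scrambling proteins enlarge the membrane, conjugation enzymes attach small ubiquitin-like ATG8 proteins to it, and receptors bring the cargo. In microglia, parts of the same machinery also act on phagosomes that have taken up debris.

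The libraries held 9760417 to 12273164 reads, and 37 of the 38 genes passed the filter on low counts. Atg9b, a paralog of the membrane protein gene Atg9a, did not pass, and lay at 2.1 to 17.6 normalized reads. Microglial markers were abundant in all libraries, with a summed level of 8 genes of 275739 to 295382 normalized reads in 12 of them and 180295 in CON 18. CON 18 also held 14709 normalized reads of 5 markers of macrophages at the brain's borders, against 184 to 439 elsewhere. RSD 8 had a median Spearman correlation with the other libraries of 0.975 and CON 18 of 0.948, where the others had 0.988 to 0.992. Differences of the genes described in full are given again without one of these libraries where that moved them by over 1.5 times.

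No autophagy gene passed the test between RSD and CON, in which p-values were adjusted over all genes tested. Limma called 0 of the 37 at an adjusted p under 0.05, as it did of all 12496 genes tested (0.00%), and edgeR and DESeq2 also called 0 of the 37. At an unadjusted p under 0.05 there was 1 autophagy gene, Atg5, in each of these tools, against 4.00% of all genes tested in limma (500 genes, with 601 in edgeR and 577 in DESeq2). The log2 differences of RSD minus CON ran from -0.24 (Map1lc3a) to 0.23 (Rb1cc1). They were positive for 15 genes and negative for 22, with a median of -0.02, beside 51.4% positive and a median of 0.01 over all genes tested. With TMM scaling 12 were positive, with edgeR or DESeq2 11 were, and without CON 18 and RSD 8 the count was 20. The groups overlapped for every autophagy gene, while 0.0640% of all genes had groups that did not.

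The intervals are for the mean difference over all 13 libraries, and the spread behind them may be technical. The 95% confidence interval lay within a 1.5-fold change in either direction for 34 of the 37 genes, the exceptions being Atg101, Atg2a and Map1lc3a. This is 91.9% of them, beside 73.5% of all genes tested. Within the libraries numbered 1 to 8 it was 23 of the 37, beside 45.7% of all genes. Within those numbered 10 to 19 it was 32, beside 60.1%. The coefficient of variation over the 13 libraries had a median of 11.9% for the autophagy genes and 16.7% for all genes tested. Each log2 value is on the scale log2(normalized reads + 1), which understates changes of low genes.

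**Figure D1:**
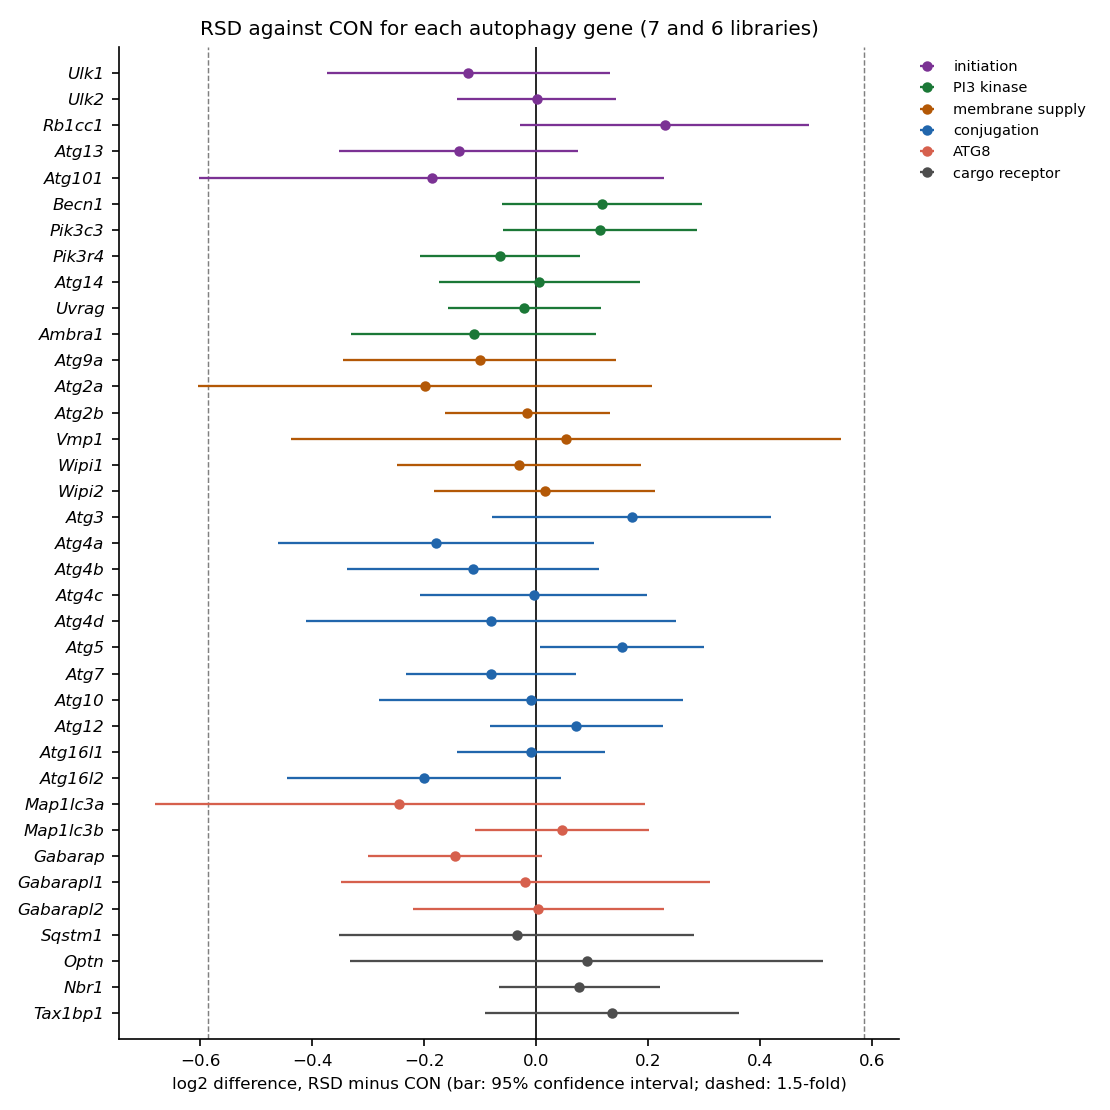
Log2 difference of RSD minus CON on the log2(normalized reads + 1) scale (horizontal axis) for the 37 autophagy genes that passed the filter (rows, coloured by role). Points are limma estimates from 7 RSD and 6 CON libraries, bars are 95% confidence intervals and dashed lines mark 1.5-fold; the intervals of Atg101, Atg2a and Map1lc3a cross the lower line, and that of Atg5 alone excludes 0.

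Levels between genes are given per length, as mean normalized reads per kilobase of annotated exons. All exons of a gene count towards its length, whichever annotated transcript holds them. On that scale Ulk2, a kinase that starts autophagy, was the most abundant at 702, above 96.3% of all genes tested. Its lowest library (652) lay above the highest library (381) of Gabarap, an ATG8 protein gene, which came next with a mean of 338. Sqstm1 (287) and Vmp1 (282) followed. From Gabarap down, each gene's libraries overlapped those of the next, so the order of neighbours is not set by these data. At the low end were Atg4a (19.9), Atg4d (19.2), Atg16l2 (17.9) and the receptor gene Optn (14.6). Within gene families Ulk2 stood against Ulk1 (96.3), and Gabarap and Gabarapl2 (214) against Map1lc3b (71.9) and Gabarapl1 (71.0). Atg5 (226) stood against Atg12 (47.5), the gene of its partner. These differences depend in part on the annotated lengths, which were 7517 bases for Map1lc3b and 2325 for Gabarapl2. Before division by length Map1lc3b had the higher mean, 540.2 normalized reads against 498.5. Lengths were 7711 bases for Atg12 and 2352 for Atg5, with means of 366.5 and 532.6. The lengths of Ulk2 and Ulk1 were closer, at 5977 and 6488 bases.

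The initiation complex joins the kinases ULK1 and ULK2 to the scaffold RB1CC1 and the adaptors ATG13 and ATG101. Rb1cc1 (chromosome 1, 6206197 to 6276648, mm10) stood at 1986.7 to 3635.1 normalized reads in RSD, with a median of 2238.2. In CON it stood at 1819.8 to 2438.1, with a median of 1994.1. RSD 8 held the highest value and RSD 2 the next, and the other RSD libraries lay inside the CON range. Its log2 difference was 0.23 ± 0.12 (SE, limma adjusted p = 0.821), and 0.13 without RSD 8. An annotated antisense gene, 4732440D04Rik, overlaps it.

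Ulk1 stood at 396.9 to 687.9 in RSD (median 635.2) and at 589.5 to 779.3 in CON (median 634.1). The medians were close, and RSD 8 lay lowest and CON 19 highest. The log2 difference of Ulk1 was -0.12 ± 0.12, and -0.02 without RSD 8. Atg13 stood at 230.9 to 372.6 in RSD (median 312.6) and 319.2 to 390.6 in CON (median 333.4), a log2 difference of -0.14 ± 0.10. Again RSD 8 was lowest, and without it the log2 difference of Atg13 was -0.07. Ulk2 stood at 0.00 ± 0.07, with 3908.0 to 4748.1 normalized reads in RSD and 3898.5 to 4763.4 in CON. Atg101, a low gene, ran from 39.4 in RSD 8 to 117.3 in CON 17 and stood at -0.19 ± 0.20, and at -0.02 without RSD 8.

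The class III PI3 kinase makes the lipid PI3P on the forming membrane. Becn1, its regulatory subunit gene (chromosome 11, 101285952 to 101302286), stood at 340.1 to 417.1 normalized reads in RSD (median 382.8) and 287.4 to 398.0 in CON (median 361.4). In 6 of 7 RSD libraries it was above the CON median, and CON 18 held the lowest value. The log2 difference was 0.12 ± 0.08 (limma adjusted p = 0.821), and 0.06 without CON 18. The span of Becn1 overlaps that of Cntd1 on the opposite strand, and the use of strand in the counting is not given in the sources used here. Of the 38 autophagy genes 17 overlap an annotated gene on the opposite strand, and not all of these overlaps are named here. Atg16l2, for example, overlaps Fchsd2.

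Pik3c3, the catalytic subunit gene, stood at 559.9 to 735.3 in RSD (median 624.3) and 533.4 to 688.4 in CON (median 575.8). Its log2 difference of 0.11 ± 0.08 was close to that of Becn1, and the groups overlapped in the same way. Pik3r4, the gene of the kinase's membrane-anchoring partner, stood at -0.07 ± 0.07 (-0.03 without RSD 8). Atg14 and Uvrag, whose proteins define the autophagy and endosome forms of the complex, stood at 0.01 ± 0.09 and -0.02 ± 0.06. Uvrag lay at 1003.0 to 1202.4 over both groups. Ambra1, a scaffold that links the complex to the ULK kinases, stood at -0.11 ± 0.10, with its lowest value (844.9) in RSD 8 and its highest (1476.2) in CON 18. Without RSD 8 the log2 difference of Ambra1 was -0.04, and without both libraries it was 0.01.

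Membrane supply rests on the scramblase ATG9A, the lipid-transfer proteins ATG2A and ATG2B, the endoplasmic reticulum protein VMP1 and the PI3P-binding WIPI proteins. Atg2a stood at 291.6 to 789.1 in RSD (median 639.1) and 613.4 to 818.1 in CON (median 677.9), and RSD 8 alone lay far below the rest. Its log2 difference was -0.20 ± 0.19, and -0.03 without RSD 8. Atg9a stood at 211.8 to 360.7 in RSD (median 337.9) and 302.9 to 379.8 in CON (median 328.5), with RSD 8 lowest again. Its log2 difference moved from -0.10 ± 0.12 to -0.01 without RSD 8. Atg2b (-0.02 ± 0.07), Wipi1 (-0.03 ± 0.10) and Wipi2 (0.02 ± 0.09) were close to 0.

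Vmp1 depended most on a single library. It stood at 834.6 to 1191.5 normalized reads in RSD (median 1091.8), and in CON at 788.4 to 949.9 in 5 libraries and 2475.8 in CON 18. The other 5 controls thus lay below 6 of the 7 RSD libraries, and RSD 7 lay among them. The log2 difference of Vmp1 was 0.05 ± 0.23 over all libraries and 0.31 without CON 18 (limma adjusted p = 0.743). Without CON 18 and RSD 8 it was 0.30 (limma adjusted p = 0.692), so it did not pass in either fit. The gene (chromosome 11, 86583865 to 86683836) holds the microRNA gene Mir21a and a processed pseudogene on its own strand. The border macrophage markers named above were high in the same library, and their part in the Vmp1 value was not tested.

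**Figure D2:**
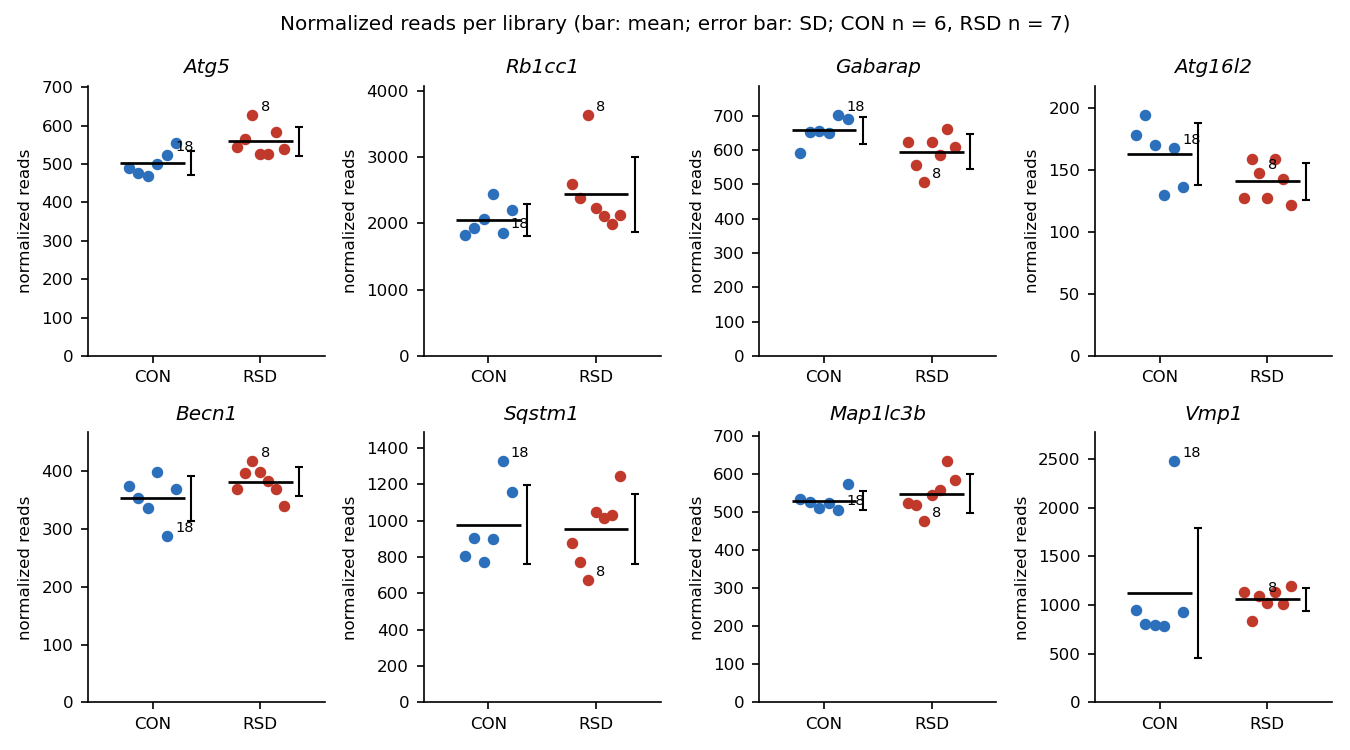
Normalized reads (vertical axis, from 0) of 8 autophagy genes in each CON (blue, n = 6) and RSD (red, n = 7) library; horizontal bars are means, error bars are SD, and the libraries CON 18 and RSD 8 are marked 18 and 8. Groups overlap in every panel, Vmp1 in CON 18 (2475.8) and Rb1cc1 in RSD 8 (3635.1) lie far from the rest, and all 7 RSD values of Atg5 lie above the CON median of 494.4.

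The conjugation enzymes attach ATG8 proteins to lipid. ATG7 activates, ATG3 and ATG10 transfer, the ATG5, ATG12 and ATG16L1 proteins form the ligase, and the ATG4 proteases process and release ATG8. Atg5 (chromosome 10, 44268358 to 44364291) had the smallest p of the autophagy genes. It stood at 525.8 to 627.8 normalized reads in RSD (median 543.9) and at 469.6 to 554.0 in CON (median 494.4). All 7 RSD libraries were above the CON median, and CON 19 alone lay above the lowest 4 of them. The log2 difference was 0.15 ± 0.07, with a 95% interval of 0.007 to 0.300 (limma adjusted p = 0.821). Leaving out 1 library at a time gave 0.125 (without RSD 8) to 0.183 (without CON 19), and Atg5 was under an unadjusted 0.05 in 6 of these 13 fits.

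Atg16l2, a paralog of Atg16l1, stood at 122.3 to 159.3 in RSD (median 143.4) and 129.8 to 194.8 in CON (median 169.3). No RSD library was above the CON median, CON 17 and CON 19 lay within the RSD range, and the log2 difference was -0.20 ± 0.12 (limma adjusted p = 0.821). Atg7 stood at 362.9 to 437.0 in RSD (median 426.8) and 399.8 to 478.9 in CON (median 441.4). No RSD library of Atg7 reached the CON median either, and the log2 difference was -0.08 ± 0.07, and -0.05 without RSD 8. Atg3 stood at 0.17 ± 0.12, with 749.1 in RSD 8 and 388.7 to 509.0 in the other 12 libraries, and at 0.07 without RSD 8. Atg16l1 had the lowest coefficient of variation of the autophagy genes, 4.81% over the 13 libraries, and a log2 difference of -0.01 ± 0.06. Without CON 18 and RSD 8 its coefficient of variation was 4.32%, and those of Ulk2 (3.73%), Uvrag (4.02%) and Atg7 (4.30%) were lower. The genes of the other enzymes lay between -0.18 ± 0.13 (Atg4a) and 0.07 ± 0.07 (Atg12).

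Promoters of these enzymes are shown because Atg5 had the smallest p and because TFEB, the transcription factor best known for autophagy and lysosome genes, binds E-box letters. The RefSeq promoter table (GRCm38.p6, 250 bases before to 50 after each start) held 32 of the 38 genes. The letters CACGTG, which read the same on both strands, were in the promoters of 4 of these 32 genes (12.5%) and of 8.09% of all genes in the table. Both longer motifs searched contain CACGTG and were read on both strands. TCACGTGA was found for 1 of the 32 genes, Atg3 (3.13%), and 1.13% of all genes, and GTCACGTG for 3, Atg3, Atg7 and Atg14 (9.38%), and 2.55% of all genes. The promoters of the autophagy genes had a median GC content of 60.2%, and all promoters 52.7%. The part of this difference in the shares of these GC-rich letters was not tested. The genes with CACGTG were Atg3, Atg5, Atg7 and Atg14, and in Atg14 the letters span the start itself. The sequence before the start is given for the other 3, on the plus strand, 5′ to 3′, with CACGTG in capitals, at chr16:45158715-45158783 for Atg3, chr10:44268305-44268338 for Atg5 and chr6:114670944-114670989 for Atg7.
Atg3: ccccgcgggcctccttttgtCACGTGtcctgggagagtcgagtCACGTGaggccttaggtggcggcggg
Atg5: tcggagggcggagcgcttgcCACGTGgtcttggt
Atg7: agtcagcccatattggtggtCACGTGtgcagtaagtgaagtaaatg
Atg3 holds the letters at 94 and 71 bases before the start, Atg5 at 14 and Atg7 at 132. These are RefSeq starts: those of Atg3 and Atg5 lie 44 and 19 bases from the start of the gene in GENCODE M21, and that of Atg7 lies 27999 bases inside it. Their log2 differences given above were not of the same sign, and a match in letters is no measure of binding.

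ATG8 proteins coat the membrane and bind the receptors. Gabarap (chromosome 11, 69991143 to 69994951) stood at 507.6 to 660.4 normalized reads in RSD (median 609.1) and 590.4 to 702.1 in CON (median 654.2). Of the 7 RSD libraries 1 was above the CON median, and the log2 difference was -0.15 ± 0.07 (limma adjusted p = 0.821). Map1lc3b, the gene of the LC3 form most used as an autophagy marker, stood at 476.7 to 633.6 in RSD (median 546.6) and 507.1 to 575.3 in CON (median 525.4). Its log2 difference was 0.05 ± 0.07 with a 95% interval of -0.11 to 0.20, and 0.08 without RSD 8. The span of Map1lc3b overlaps those of Gm20388 on its strand and Zcchc14 on the other.

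Map1lc3a stood at 54.3 to 167.8 in RSD (median 123.9) and 121.7 to 158.6 in CON (median 135.5). RSD 8 held far less of it than the next library (104.6 in RSD 2), and the log2 difference moved from -0.24 ± 0.21 to -0.06 without RSD 8. Gabarapl1 (-0.02 ± 0.16) was low in both libraries that stand apart, at 93.6 in RSD 8 and 92.4 in CON 18 against 130.9 to 171.6 elsewhere, and stood at 0.08 without the first and -0.14 without the second. Gabarapl2 (0.00 ± 0.11) was lowest in CON 18, at 346.0, and stood at -0.10 without it. Paralogs in this family are alike in sequence, and how the counting treated reads that match several genes is not given in the sources used here.

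Cargo receptors tie ubiquitin-tagged material to ATG8 proteins. Sqstm1, the gene of p62 (chromosome 11, 50199366 to 50210827, overlapping Mrnip on the other strand), stood at 671.5 to 1245.9 in RSD (median 1015.9) and 770.6 to 1326.4 in CON (median 902.2). The groups overlapped, with RSD 8 lowest and CON 18 highest, and the log2 difference was -0.04 ± 0.15, 0.04 without RSD 8 and 0.06 without CON 18. Nbr1 stood at 1706.1 to 2027.2 in RSD (median 1816.5) and 1566.7 to 1937.5 in CON (median 1666.4). All 7 RSD libraries of Nbr1 were above the CON median, but CON 17 and CON 19 lay above most of them, and the log2 difference was 0.08 ± 0.07, and 0.05 without RSD 8.

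Tax1bp1 stood at 1839.5 to 3015.7 in RSD (median 1865.2) and 1651.1 to 2047.8 in CON (median 1895.2). RSD 8 held the highest value and the next was 2059.4, so the RSD median lay below the CON median while the log2 difference was 0.14 ± 0.11. Without RSD 8 the log2 difference of Tax1bp1 was 0.04. Optn, the receptor gene with the fewest reads per kilobase, was at 27.0 in CON 18 and 46.5 to 70.2 elsewhere, and its log2 difference of 0.09 ± 0.20 was -0.09 without CON 18.

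RSD 8 and CON 18 held most of the extreme values. RSD 8 was the highest library for 10 autophagy genes and the lowest for 16, which is 70.3% of the 37, beside 52.5% of all genes tested. CON 18 was highest for 12 and lowest for 4, or 43.2%, beside 44.1% of all genes. The SD of the autophagy genes' log2 deviations from each gene's median was 0.51 in RSD 8, 0.37 in CON 18 and 0.10 to 0.17 in the other libraries. Over all genes tested CON 18 had the larger SD, 0.84 against 0.575 in RSD 8, and the other libraries had 0.235 to 0.312. In CON 18 the deviations ran from -1.04 (Optn) to 1.29 (Vmp1), with Sqstm1 above and Gabarapl1, Gabarapl2 and Becn1 below their medians. Without both libraries the autophagy genes' differences ran from -0.20 (Atg4a) to 0.30 (Vmp1), 2 were under an unadjusted limma p of 0.05 (Vmp1 and Atg5, against 4.89% of all genes), and 0 passed (0.00%).

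**Figure D3:**
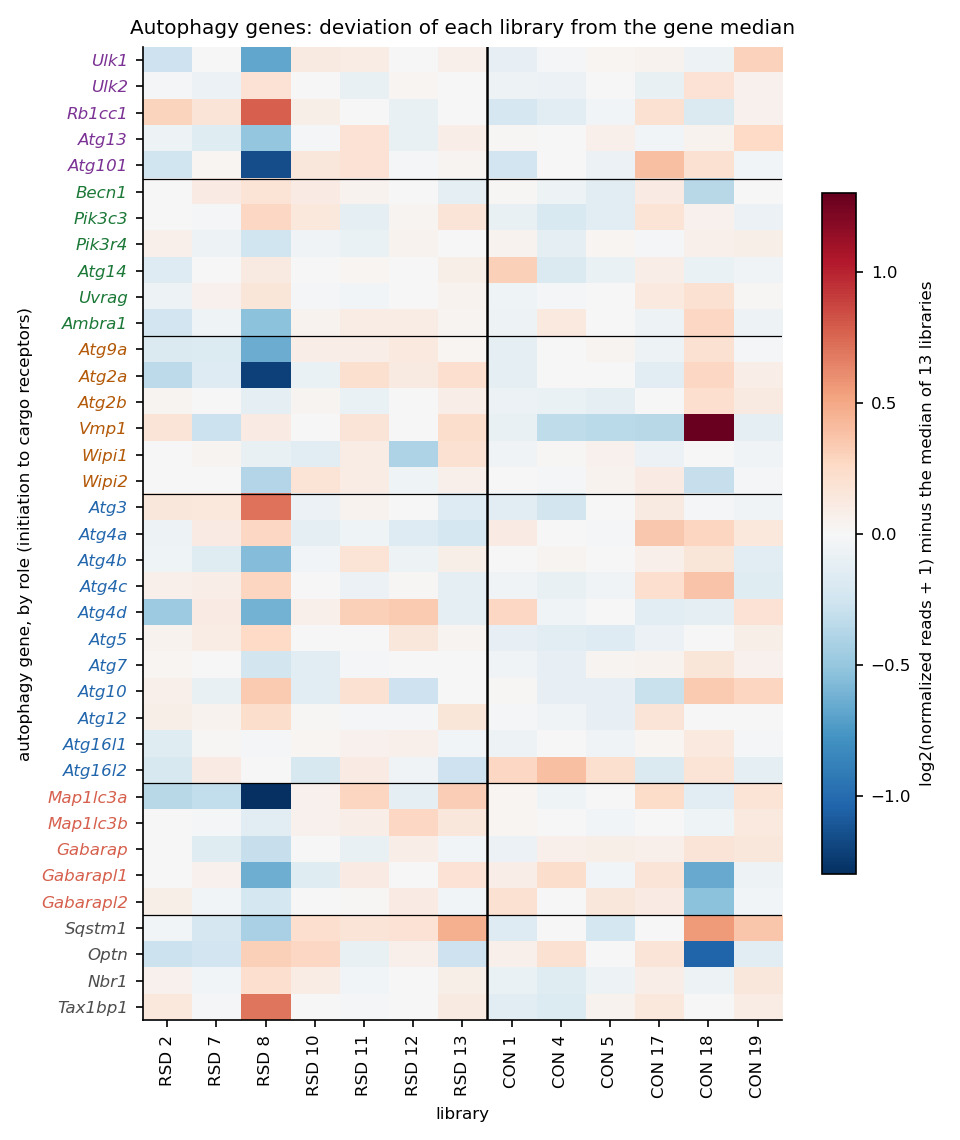
Deviation of log2(normalized reads + 1) from each gene's median over 13 libraries (colour, log2 units) for 37 autophagy genes (rows, grouped by role) in 7 RSD and 6 CON libraries (columns, split by the vertical line). RSD 8 stands out with high Rb1cc1, Atg3 and Tax1bp1 and low Map1lc3a, Atg2a and Atg101, and CON 18 with high Vmp1 (1.29) and low Optn (-1.04).

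The order of the differences followed the base composition of the transcripts. GC content of the longest annotated transcript ran from 39.1% (Rb1cc1) to 63.1% (Map1lc3a) among the autophagy genes, with a median of 50.3% (49.5% over all genes tested). Across the 37 genes, which share their libraries and are not independent replicates, the log2 difference had a Spearman correlation with GC content of -0.68, and across 11878 genes tested of -0.43. In RSD 8 alone the correlation of the deviations with GC content was -0.89 over the autophagy genes, in RSD 2 it was -0.73 and in CON 18 it was -0.01. In the remaining libraries it lay between -0.36 (RSD 7) and 0.49 (CON 4). Over all genes the correlation was -0.728 in RSD 8, -0.567 in RSD 2 and -0.085 in CON 18. In the remaining libraries the correlation over all genes lay between -0.081 (CON 17) and 0.406 (CON 4). Without RSD 8 the correlation of the differences was -0.27, and over all genes -0.14. Of the 19 genes at or below the median GC content 12 had positive differences, and of the 18 above it 3 did; without RSD 8 these counts were 11 and 6. Rb1cc1, Atg3 and Tax1bp1 were at 39.1% to 40.1% GC, and Atg2a and Map1lc3a at 60.0% and 63.1%. The part of base composition in the differences between RSD and CON was not tested.

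**Figure D4:**
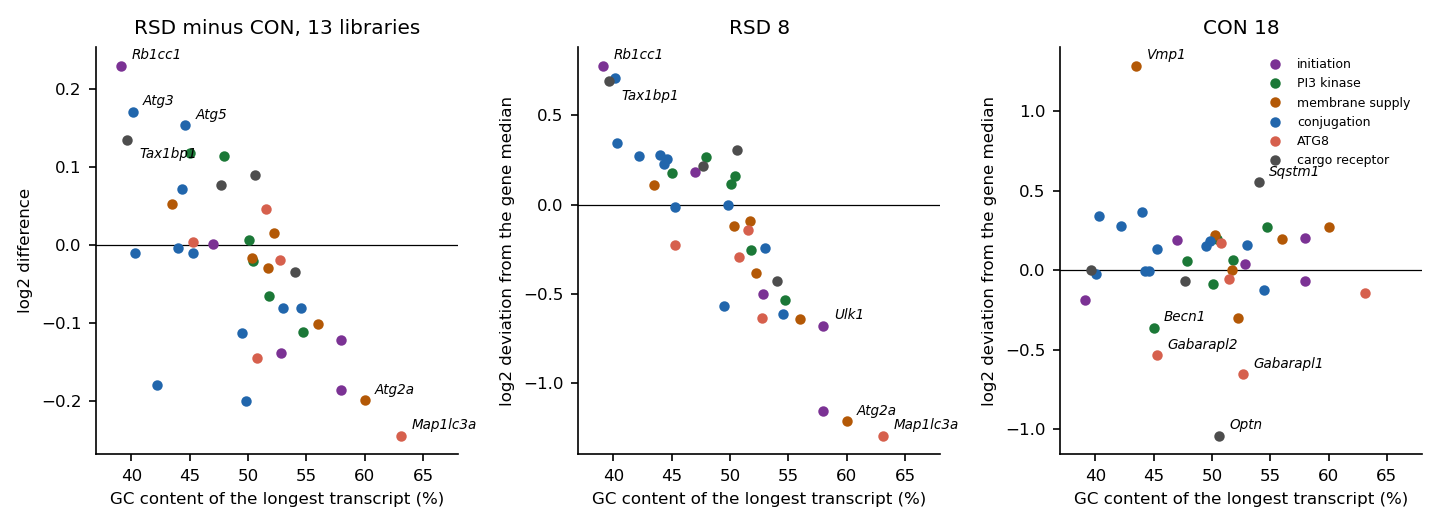
GC content of the longest transcript (horizontal axes, percent) against the log2 difference of RSD minus CON (left) and against the log2 deviation from the gene median in RSD 8 (middle) and CON 18 (right); each point is 1 of 37 autophagy genes, coloured by role. Values fall with GC content on the left (Spearman -0.68) and in RSD 8 (-0.89), and not in CON 18 (-0.01), where Vmp1 and Optn lie apart.

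The sample numbers in the titles fall into the ranges 1 to 8 and 10 to 19, and what they stand for is not stated. Within numbers 1 to 8 (3 RSD and 3 CON) 6 of the 37 autophagy genes were under an unadjusted limma p of 0.05, against 22.2% of all genes tested, and 0 passed (0.00%). They were Rb1cc1 (0.55 ± 0.15), Atg3 (0.46 ± 0.16) and Atg5 (0.27 ± 0.11) on the positive side and Ambra1 (-0.30 ± 0.13), Atg2a (-0.54 ± 0.23) and Map1lc3a (-0.65 ± 0.25) on the negative. Within numbers 10 to 19 (4 RSD and 3 CON) the same 6 genes stood at -0.03 ± 0.10, -0.07 ± 0.09, 0.05 ± 0.08, 0.03 ± 0.09, 0.04 ± 0.12 and 0.04 ± 0.16. There 1 autophagy gene, Atg4a (-0.40 ± 0.17), was under 0.05, against 5.43% of all genes, and 0 passed (0.00%). With 1 library left out there, Atg4a stayed under 0.05 only without CON 19, together with Uvrag and Atg4c (10.5% of all genes; 0.00% passed). Without CON 18 the genes under 0.05 were Rb1cc1, Ambra1 and Vmp1, against 9.53% of all genes, and 0 autophagy genes passed, against 0.0880%.

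In numbers 1 to 8 the differences also followed GC content (Spearman -0.84 over the autophagy genes and -0.70 over all), and in numbers 10 to 19 the correlations were 0.31 and 0.22. RSD 2 and RSD 8 are both in the first range. Neutrophil transcripts also differed between the ranges: the summed level of 5 markers was 181.5 to 1185.4 normalized reads in numbers 1 to 8 and 11.6 to 123.7 in numbers 10 to 19. For 4 of the 5 the ranges did not overlap, S100a9 being the exception, and S100a8 and Ltf were each at 0 in 3 libraries of numbers 10 to 19. Within numbers 1 to 8 the sum was 775.5 to 1185.4 in RSD and 181.5 to 730.1 in CON. There, with 3 libraries in each group, S100a8 and S100a9 did not overlap between the groups. Ngp did (184.1 to 260.3 in RSD and 57.5 to 208.7 in CON), as did Camp (22.3 to 47.7 and 14.4 to 32.0) and Ltf (131.9 to 187.1 and 26.1 to 167.0). How many of all genes tested did not overlap between the ranges, or between the groups within numbers 1 to 8, was not counted. The part of the neutrophil transcripts in the values of the autophagy genes was not tested. The correlation with GC content in RSD 7 was -0.36 over the autophagy genes and -0.051 over all genes. Leaving out RSD 7 gave 9 called genes of 37 within numbers 1 to 8. In that fit 20.1% of all genes were called and 38.6% were under an unadjusted 0.05. The 9 were Ulk1, Rb1cc1, Ambra1, Atg2a, Vmp1, Atg3, Atg4d, Map1lc3a and Tax1bp1. Leaving out RSD 8 there gave 1, Rb1cc1, against 0.640%. The difference between the ranges was tested with an interaction term, which 0 autophagy genes passed in limma (smallest adjusted p = 0.157). Of the 37, 5 were under an unadjusted 0.05 (Rb1cc1, Atg3, Atg4c, Map1lc3a and Tax1bp1), against 21.7% of all genes.

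Other genes of the pathway were taken from a list of 52, all measured: upstream kinases, transcription factors, partners of the complexes, further adaptors and the factors that fuse the vesicle with the lysosome. Limma, edgeR and DESeq2 called 0 of them (limma over all genes 0.00%). Of the 52 differences 22 were positive, with a median of -0.03, beside 51.4% positive and a median of 0.01 over all genes tested. The count was 29 without RSD 8 (median 0.02), 17 without CON 18 (-0.02) and 21 without both (-0.01). It was 19 in numbers 1 to 8 (-0.095) and 35 in numbers 10 to 19 (0.04). In limma 1 of the 52 was under an unadjusted 0.05, against 4.00% of all genes. That gene was Tbk1, a kinase that phosphorylates the receptors OPTN and p62. Tbk1 stood at 1359.3 to 1726.0 normalized reads in RSD (median 1467.9) and at 1182.7 to 1388.3 in CON (median 1265.9). CON 17 lay above RSD 11 and RSD 13, no other control reached an RSD library, and the log2 difference was 0.21 ± 0.07 (limma adjusted p = 0.821). Without CON 18 and RSD 8 the log2 difference of Tbk1 was 0.17, and it was 0.35 in numbers 1 to 8 and 0.10 in numbers 10 to 19.

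Tfeb stood at 217.1 to 500.4 in RSD (median 398.0) and 347.8 to 414.8 in CON (median 401.2), a log2 difference of -0.11 ± 0.15. RSD 8 held the lowest Tfeb value, and without it the difference was 0.02. Its relative Tfe3 stood at -0.14 ± 0.09 and Foxo3, another transcription factor of autophagy genes, at -0.28 ± 0.15. Both were lowest in RSD 8 (1141.8 and 393.7), and without it Tfe3 stood at -0.07 and Foxo3 at -0.15. Mtor, the kinase that holds autophagy back when nutrients are plentiful, stood at -0.15 ± 0.08, with its highest value (1658.8) in CON 18 and its lowest (1036.5) in RSD 8, and stood at -0.09 without CON 18. The AMPK catalytic genes stood at 0.15 ± 0.09 (Prkaa1) and 1.06 ± 0.59 (Prkaa2), the second at 1.1 reads in CON 18 and 15.6 to 66.5 elsewhere. Without CON 18 the log2 difference of Prkaa2 was 0.44, and without both libraries 0.31. Without RSD 8 that of Prkaa1 was 0.09.

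Of the partners and adaptors, Rubcn, whose protein restrains the PI3 kinase, stood at -0.16 ± 0.10, Sh3glb1 at 0.13 ± 0.11 and the endoplasmic reticulum receptor gene Retreg1 at 0.19 ± 0.09. Without RSD 8 Rubcn stood at -0.09 and Sh3glb1, whose highest value (7355.2) was in that library, at 0.04. Without CON 18 and RSD 8 Retreg1 stood at 0.07. Among the fusion factors, 3 of 13 differences were positive, beside 51.4% of all genes tested. The count was 5 without RSD 8, 3 without CON 18, 4 in numbers 1 to 8 and 7 in numbers 10 to 19. Stx17, the SNARE of the finished vesicle, stood at -0.07 ± 0.13 and was highest in CON 18 (742.6), without which it stood at 0.04. Its partner Snap29 stood at 0.14 ± 0.09 and the adaptor gene Plekhm1 at -0.20 ± 0.12. Without RSD 8 Plekhm1 stood at -0.09, and without CON 18 and RSD 8 Snap29 stood at 0.07.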

How the data were processed

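RNA was sequenced from 13 libraries of sorted microglia (7 RSD, 6 CON). The submitters' processing notes name STAR, mm10 and DESeq2; of versions, counter, annotation and strand they say nothing. The deposited signal, per the labels normalized by the authors with DESeq2, is a gene's read count divided by a size factor: 100% of values in a library were whole multiples of 1 step within 0.01 reads, so whole reads were recovered. Every pair of libraries differed beyond counting noise (lowest chi-square per degree of freedom 4.21). The labels do not say that libraries come from separate animals, and the spread behind each p-value may be technical.

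The test was limma (3.58.1, R 4.3.3) on log2(value + 1) with trend and robust variance, two-sided, over 12496 genes kept by filterByExpr (minimum count 10, minimum total 15), with Benjamini-Hochberg adjustment at 0.05. The step was tested on simulated data. Alternatives were edgeR 4.0.16 (TMM), DESeq2 1.42.0, TMM scaling, a pseudocount of 10, no filter, number range as a term, and libraries left out. Positions, exon lengths and GC content came from GENCODE M21 (GRCm38, which is mm10). Genes described in full were, in each role, the 2 of smallest p, plus Becn1, Ulk1, Atg5, Atg7, Map1lc3b and Sqstm1; among the other pathway genes the 2 of smallest p per group, plus Tfeb, Mtor and Stx17. Vmp1 is described in full because of CON 18. Genes and lists were chosen with earlier results of these data known, and the GC content, promoter and interaction analyses were added after seeing the data.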

Additional observations from a re-analysis of the deposited data

Results flagged for a closer look

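In each group of each autophagy gene, the gap between the most extreme library and its nearest neighbour was compared with the range of the group. Of 76 such groups 11 had a gap above the 95% critical value of Dixon's test, whose nominal rate of about 1 in 20 would give 3.8. RSD 8 held 4 of them, all high: Rb1cc1 at 3635.1 normalized reads (other RSD libraries 1986.7 to 2597.5), Tax1bp1 at 3015.7 (1839.5 to 2059.4), Atg3 at 749.1 (407.9 to 509.0) and Ulk2 at 4748.1 (3908.0 to 4253.7). CON 18 held 4: Vmp1 was high at 2475.8 (other CON libraries 788.4 to 949.9), while Gabarapl2 at 346.0 (489.2 to 573.4), Wipi2 at 400.0 (485.1 to 531.7) and Optn at 27.0 (51.2 to 64.9) were low. CON 19 was high for Ulk1 at 779.3 (589.5 to 654.7) and Atg13 at 390.6 (319.2 to 343.7), both of the initiation complex. CON 17 was high for Atg12 at 399.9 (330.9 to 356.8). The groups share their libraries and are not independent, and the same count was not made over all genes. RSD 8 was the highest or lowest library for 52.5% of all genes tested and CON 18 for 44.1%. Those shares do not measure gaps, so whether such gaps are particular to autophagy genes was not tested.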

How the results depend on the processing

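Under the 20 alternatives to the limma fit over all libraries 0 autophagy genes and 0 other pathway genes were called, and no gene followed came below an adjusted p of 0.692. DESeq2 called 2 genes of the whole table. Autophagy genes under an unadjusted limma p of 0.05 numbered 2 with number range as a term (Atg5, Gabarap), against 733 of all 12496 genes. Without CON 18 and RSD 8 there were 2, against 4.89% of all genes. With 1 library left out there were 0 to 2, against 322 to 649 of all genes (0 without CON 4, CON 5, RSD 7 or RSD 8). Within numbers 1 to 8 from 0 to 9 autophagy genes were called with 1 library left out. The 9 were called without RSD 7, where 20.1% of all genes were called. Of 50 genes followed, 29 kept their sign throughout. In the other 21 it turned under at least 1 alternative. Without CON 18 and RSD 8: Atg101 0.014, Atg14 -0.028, Ambra1 0.012, Atg9a 0.029, Atg2a 0.024, Atg2b 0.046, Atg4c 0.021, Atg16l1 0.017, Gabarapl2 -0.064, Sqstm1 0.138 and Optn -0.149. With edgeR: Ulk2 -0.00741, Atg14 -0.00785, Vmp1 -0.0896 and Gabarapl2 -0.018. With DESeq2: Ulk2 -0.00341, Atg14 -0.00439, Vmp1 -0.088 and Gabarapl2 -0.015. With TMM scaling: Ulk2 -0.00597, Atg14 -0.000198 and Gabarapl2 -0.00261. With number range as a term: Ulk2 -0.000638. With 1 library left out the log2 difference ran from -0.0296 to 0.0381 for Ulk2, -0.0315 to 0.0687 for Atg14, -0.0448 to 0.00906 for Uvrag, -0.0405 to 0.0269 for Atg2b, -0.0198 to 0.31 for Vmp1, -0.0703 to 0.0302 for Wipi1, -0.0386 to 0.0762 for Wipi2, -0.045 to 0.0606 for Atg4c, -0.146 to 0.0122 for Atg4d, -0.0717 to 0.0539 for Atg10, -0.0239 to 0.0155 for Atg16l1, -0.141 to 0.0761 for Gabarapl1, -0.0986 to 0.0469 for Gabarapl2, -0.104 to 0.0583 for Sqstm1, -0.0924 to 0.154 for Optn, -0.183 to 0.0168 for Tfeb and -0.127 to 0.0406 for Stx17. The cause of these turns was not tested. No paired analysis was possible because no number is shared between the groups. Atg9b is too low to be read at this depth.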

Other observations

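Sqstm1 lay lower in the libraries numbered 1 to 8 than in those numbered 10 to 19, in both groups. In the first range it stood at 878.6, 774.4 and 671.5 normalized reads in RSD 2, 7 and 8 and at 806.1, 902.5 and 770.6 in CON 1, 4 and 5. In the second it stood at 1049.5, 1015.9, 1031.3 and 1245.9 in RSD 10, 11, 12 and 13 and at 901.8, 1326.4 and 1156.3 in CON 17, 18 and 19. The ranges met only at CON 4 and CON 17. The summed level of 5 neutrophil markers was 181.5 to 1185.4 normalized reads in numbers 1 to 8 and 11.6 to 123.7 in numbers 10 to 19. The difference of Sqstm1 was seen after its values were examined and was not tested, nor was the part of the neutrophil transcripts in it.

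Atg9b, which failed the filter, was at 2.1 to 5.8 normalized reads in numbers 1 to 8 and at 2.3 in CON 18 and 5.6 to 17.6 in the other libraries of numbers 10 to 19, values of a few reads each.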
